A study of Homo sapiens with 148 samples.

Results

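NEUROG1, NEUROG2, NEUROD2, NEUROD4, ATOH1, OLIG1, OLIG2, NHLH1 and BHLHE22 are genes for basic helix-loop-helix (bHLH) transcription factors of the neural lineages. They were taken, as every row with one of these gene names, from an RNA-seq table that follows human embryonic stem cells as they are differentiated towards pancreatic islet organoids. All 9 were listed, each as a single entry, among 49085 gene names. They are described here across the 6 stages of the table: the stem cells (hESCs), the definitive endoderm (DE), cells like the primitive gut tube (PGT), pancreatic progenitors (PP), a stage labelled PH, and the final organoids with β cells (SC-β).

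All 6 stages come from H9, an established hESC line, with the genotype given as WT in each, so every value below is from 1 genetic background. The hESCs were undifferentiated. The other stages carry the treatment "Pancreatic differentiation", which was run in rotating spheroid culture and was sampled at day 4 for DE, day 7 for PGT, day 14 for PP and day 35 for SC-β. Activin A and CHIR99021 were given towards DE, KGF towards PGT, retinoic acid with inhibitors of hedgehog and BMP signalling towards PP, and a γ-secretase inhibitor, an Alk5 inhibitor, thyroid hormone T3 and betacellulin in the steps towards SC-β. The labels give PH neither a day nor a definition beyond differentiated cells, and the study's methods do not describe it. The labels list 2 RNA-seq replicates per stage, 12 of 148 samples in all. The deposited values are the authors' means over the replicates of a stage, in TPM, in which reads are corrected for the length of the transcript and scaled to a common total. No spread, read count or depth can be recovered from these means, so no value has an error, no comparison has a test, and no order of neighbouring stages can be judged against replicate error.

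bHLH factors bind DNA as dimers at short sequences called E-boxes, usually together with a broadly expressed E-protein such as TCF3, TCF4 or TCF12. The proneural members (the neurogenins and ATOH1) start the commitment of a progenitor to a neuronal fate and induce later members such as the NEUROD and NHLH factors, while ID proteins capture the E-proteins and HES and HEY proteins repress proneural genes. The pancreas uses the same logic, with NEUROG3 and NEUROD1 as the bHLH factors of the endocrine lineage, and OLIG factors act in ventral neural progenitors and the oligodendrocyte lineage.

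Promoter sequences are shown for the 5 members that were at least 2-fold higher in PH than in both PP and SC-β. The choice rests on this limit alone, and ATOH1, which is among the 5, was highest in PGT. RefSeq (GRCh38.p14) gave a 300-base window, 250 bases before the start site and 50 from it on, for 6 of the 9 members: these 5 and NEUROD2. Each is printed 5′ to 3′ along the gene. Capitals mark E-boxes, written CANNTG with N for any base, and, in NEUROG1 and NEUROG2, a run of 12 bases that both promoters share.
NEUROG1, chr5:135535915-135536214, reverse strand: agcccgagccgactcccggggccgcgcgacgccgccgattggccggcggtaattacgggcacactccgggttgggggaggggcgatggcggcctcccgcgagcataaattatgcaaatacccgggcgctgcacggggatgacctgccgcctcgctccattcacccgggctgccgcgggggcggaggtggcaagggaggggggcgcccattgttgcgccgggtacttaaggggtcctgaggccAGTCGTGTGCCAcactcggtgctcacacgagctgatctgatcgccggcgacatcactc
NEUROG2, chr4:112516131-112516430, reverse strand: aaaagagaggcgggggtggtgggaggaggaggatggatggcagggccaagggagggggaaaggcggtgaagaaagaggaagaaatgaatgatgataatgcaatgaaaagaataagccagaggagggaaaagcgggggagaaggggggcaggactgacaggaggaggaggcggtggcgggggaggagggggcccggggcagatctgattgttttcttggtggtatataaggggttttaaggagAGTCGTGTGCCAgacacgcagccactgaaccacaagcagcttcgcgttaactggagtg
NEUROD4, chr12:55019724-55020023, forward strand: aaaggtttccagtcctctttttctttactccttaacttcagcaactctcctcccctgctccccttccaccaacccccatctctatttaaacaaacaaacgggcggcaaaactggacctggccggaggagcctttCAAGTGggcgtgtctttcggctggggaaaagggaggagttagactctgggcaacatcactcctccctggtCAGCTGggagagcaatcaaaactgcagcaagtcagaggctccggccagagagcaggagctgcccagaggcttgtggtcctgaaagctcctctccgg
ATOH1, chr4:93828503-93828802, forward strand: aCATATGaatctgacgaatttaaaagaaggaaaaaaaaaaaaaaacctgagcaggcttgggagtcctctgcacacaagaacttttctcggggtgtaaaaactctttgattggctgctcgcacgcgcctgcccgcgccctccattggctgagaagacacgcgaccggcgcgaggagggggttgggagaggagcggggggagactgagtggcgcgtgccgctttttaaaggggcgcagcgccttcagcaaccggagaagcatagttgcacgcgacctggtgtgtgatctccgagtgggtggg
NHLH1, chr1:160366821-160367120, forward strand: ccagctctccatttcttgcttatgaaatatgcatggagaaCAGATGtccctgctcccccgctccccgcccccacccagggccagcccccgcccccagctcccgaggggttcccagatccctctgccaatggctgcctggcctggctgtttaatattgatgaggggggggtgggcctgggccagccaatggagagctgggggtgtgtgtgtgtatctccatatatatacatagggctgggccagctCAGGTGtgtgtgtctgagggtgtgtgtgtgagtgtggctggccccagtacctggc

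The start sites of NEUROG1 and NEUROG2 lay within the same run of 12 bases, AGTCGTGTGCCA, which began at position -8, counted from the start site as 0, in both and was found in 2 of the 35116 promoters of the table. A second shared run of the same length, CAAGGGAGGGGG, began at position -61 in NEUROG1 and at position -204 in NEUROG2, and 8 promoters held it. NEUROG1 and NEUROD2 shared 11 bases, TGCCACACTCG, which 2 promoters held, and NEUROD4 and NHLH1 shared 11 bases, CCCTGCTCCCC, which 64 promoters held. The longest runs of the other pairs had 10 bases or fewer. Each run was picked as the longest that its pair shares, so a count of 2 is the lowest possible. Where 2 promoters held a run, they were the pair itself, and the count is no measure of rarity. The longest run shared by arbitrary pairs of promoters was not computed, so the lengths have no background.

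An E-box on either strand was present in 4 of the 6 promoters, against 68.7% of all promoters, whose median number was 1. NEUROD2 held 3, NEUROD4 and NHLH1 held 2 each, ATOH1 held 1, and NEUROG1 and NEUROG2 held none. The form CAGATG stood in NEUROD2 and NHLH1, against 14.7% of all promoters. The form CATATG stood in NEUROD2 and ATOH1, against 3.04%, and CAGCTG in NEUROD4 alone, against 17.9%. These 3 forms are part of the E-box count. The N-box, CACNAG on either strand, the sequence that HES repressors are known to bind, was present in NEUROG1, NEUROG2, NEUROD4 and ATOH1, against 38.0% of all promoters. In each of these 4 a match began between 17 and 23 bases after the start site. This position was not set beforehand, and the share of all promoters with an N-box there was not computed. CACGTG, a further form of the E-box found in 7.26% of all promoters, and TATAAA, the core of the TATA box, found in 11.5%, were in none of the 6 windows. Only these exact letters were searched, so a similar stretch such as TATATAAG, which stands in NEUROG2 before the start site, was not counted. A match is a stretch of letters in this window and says nothing about a bound factor.

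**Figure D1:**
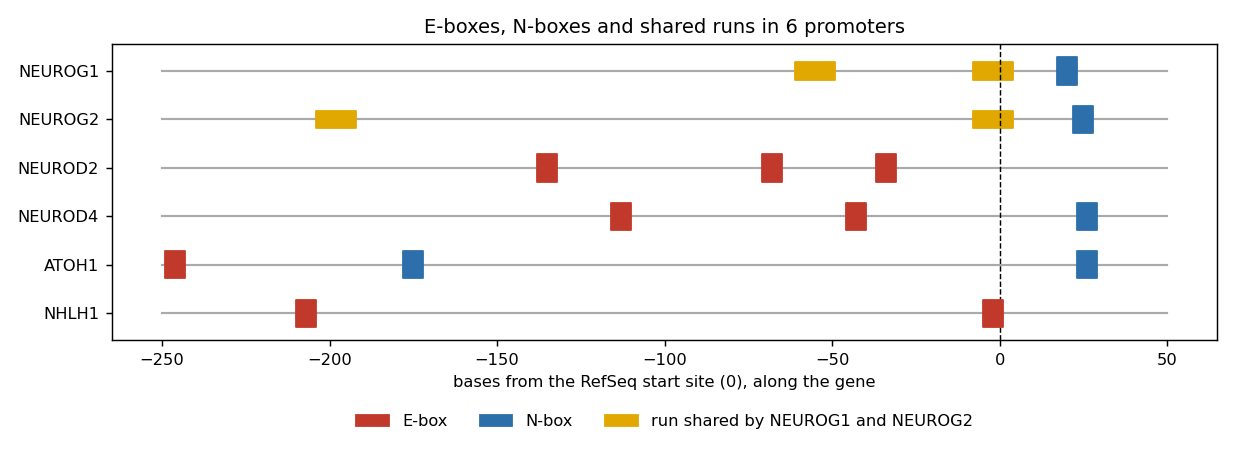
Positions of E-boxes (CANNTG), N-boxes (CACNAG) and runs shared by NEUROG1 and NEUROG2 in the 300-base RefSeq promoters of 6 members, in bases from the start site (horizontal axis, 0 at the start site). NEUROG1 and NEUROG2 have no E-box and share a run of 12 bases across the start site, and 4 promoters have an N-box between 17 and 28 bases after it. The share of all promoters with an N-box at that position was not computed.

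The promoters differed in base composition. GC content was 69% in NEUROG1, 61% in NHLH1, and between 55% in NEUROD4 and 56.3% in NEUROG2 in the other 4, where the median of all promoters was 58.7%. NEUROG1 held 35 CG dinucleotides and ATOH1 22, whereas NHLH1 held 4 and NEUROD4 7, with a median of 14 over all promoters. The RefSeq window of NEUROD2, chr17:39607871-39608170, lay inside the GENCODE gene rather than at its outer start.

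In the GENCODE annotation (version 44, GRCh38, the same build as hg38) the coding sequence of each of the 9 members lay in 1 exon. NEUROG1 (ENSG00000181965.6, chr5:135534282-135535964, reverse strand), ATOH1 (ENSG00000172238.6, chr4:93828753-93830964, forward strand), OLIG1 (ENSG00000184221.13, chr21:33070141-33072413, forward strand) and BHLHE22 (ENSG00000180828.3, chr8:64580365-64583627, forward strand) had a single exon. NEUROG2 (ENSG00000178403.4, chr4:112513516-112516180, reverse strand), NEUROD2 (ENSG00000171532.5, chr17:39603536-39609777, reverse strand), NEUROD4 (ENSG00000123307.4, chr12:55019974-55030017, forward strand), OLIG2 (ENSG00000205927.5, chr21:33025935-33029196, forward strand) and NHLH1 (ENSG00000171786.6, chr1:160367071-160372846, forward strand) had 2 exons. Coding lengths ran from 399 bp in NHLH1 to 1146 bp in NEUROD2. OLIG2 and OLIG1 lay on the same strand with 40944 bp between them.

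Several members overlap a gene on the opposite strand, and whether the TPM estimates used the strand is not given in the sources used here, so reads of the partners cannot be told apart. NEUROG1 lies within SLC25A48, a mitochondrial carrier gene, which was at 0.202 TPM in PH and highest, at 5.56 TPM, in SC-β. In hESCs SLC25A48 was at 2.13 TPM and in DE at 3.16 TPM, where NEUROG1 was listed at 0 and at 0.0729 TPM, and in PP it was at 0.940 TPM. NEUROG2, OLIG1, OLIG2 and BHLHE22 overlap non-coding genes (NEUROG2-AS1, a long non-coding gene across both OLIG genes, and BHLHE22-AS1) that the table does not list under these names.

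The labels were set against marker genes first. The 5 endoderm markers (SOX17, CXCR4, GSC, CER1, EOMES) were each highest in DE, the gut tube markers (HNF4A, FOXA1, FOXA2, GATA4) summed to 198 TPM in PGT, and the endocrine markers (INS, GCG, CHGA, NEUROD1, PAX4) summed to 3919 TPM in SC-β. In PH the gut tube markers summed to 4.10 TPM, against 53.2 in PP and 28.3 in SC-β, and all 4 were at least 2-fold lower than in PP. PDX1, the defining factor of pancreatic progenitors, was at 0.0173 TPM in PH, against 3.17 in PP and 1.57 in SC-β. The endocrine markers summed to 108 TPM in PH, with INS at 6.86 TPM, against 244 in PP. The whole list of 5 pancreatic progenitor markers (PDX1, NKX6-1, PTF1A, ONECUT1, SOX9) summed to 39.9 TPM in PH, against 50.6 in PP and 37.8 in SC-β. In PH against PP 1 of these 5 was at least 2-fold higher, PTF1A with a log2 ratio of 2.09, and 3 were lower, and PTF1A, at 7.61 TPM, and SOX9, at 27.2 TPM, were highest in PH. The 3 lower ones were PDX1, ONECUT1 and NKX6-1, the last with a log2 ratio of -1.35 and under 1 TPM in PH. PDX1, NKX6-1 and the gut tube markers were thus low in PH, and most of the 39.9 TPM was SOX9 and PTF1A. PTF1A also acts in the dorsal spinal cord and cerebellum. Whether SOX9 and PTF1A came from pancreatic cells in PH was not tested, and PH is called here only by its label.

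Markers of other cell types were compared between PH, PP and SC-β as well. The 9 neural progenitor markers (SOX1, SOX2, SOX3, PAX6, NES, HES5, FABP7, MSI1, LHX5) summed to 507 TPM in PH, against 149 in PP and 203 in SC-β. In PH 8 of the 9 were highest, and 8 were at least 2-fold higher than in PP, against 5.14% of all names. The share of all names highest in a given stage was not computed, here or for the genes and lists below. The neural progenitor markers were present outside PH as well, with SOX2 at 68.2 TPM in PP and 50.9 in SC-β. The 7 mesenchymal markers summed to 607 TPM in PH, 59.7 in PP and 1557 in SC-β, where 6 of 7 were highest, and none of them was at 0 in PP, PH or SC-β. The 5 hepatic markers summed to 39.0 TPM in PH, 119 in PP and 1361 in SC-β, and to 1367 TPM in PGT. TTR alone was at 35.9 TPM in PH and 1229 in SC-β, so the sums of both stages were mostly this gene. The 5 pluripotency markers summed to 22.5 TPM in PH, 248 in PP and 40.4 in SC-β, and the endothelial markers stayed between 2.86 and 5.64 TPM from PGT on. The part of these cells in the levels below was not tested, and in bulk RNA a larger share of cells of a type and more RNA per cell cannot be told apart.

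Summed over the 9 members, the level was 91.4 TPM in PH, against 10.4 TPM in PGT, 10.2 in PP, 7.76 in SC-β, 4.91 in DE and 1.13 in hESCs. The number of members at 1 TPM or more was 5 in PH, 2 in PP and SC-β, 1 in DE and PGT and 0 in hESCs. With a limit of 0.5 TPM, and likewise without the 100 most abundant names, it was 7 in both PH and SC-β, so that the difference between these stages in this number depends on the limit. Over all names, the share at 1 TPM or more was 39.8% in PH, 39.2% in PP and 50.1% in SC-β. In PGT, 93.4% of the summed level was ATOH1, in DE 63.6% was BHLHE22 and in PP 67.2% was NEUROG2. In PH the highest member, NHLH1, held 30.2%, and the sum was spread over NEUROG1, NEUROG2, NEUROD4 and NHLH1.

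**Figure D2:**
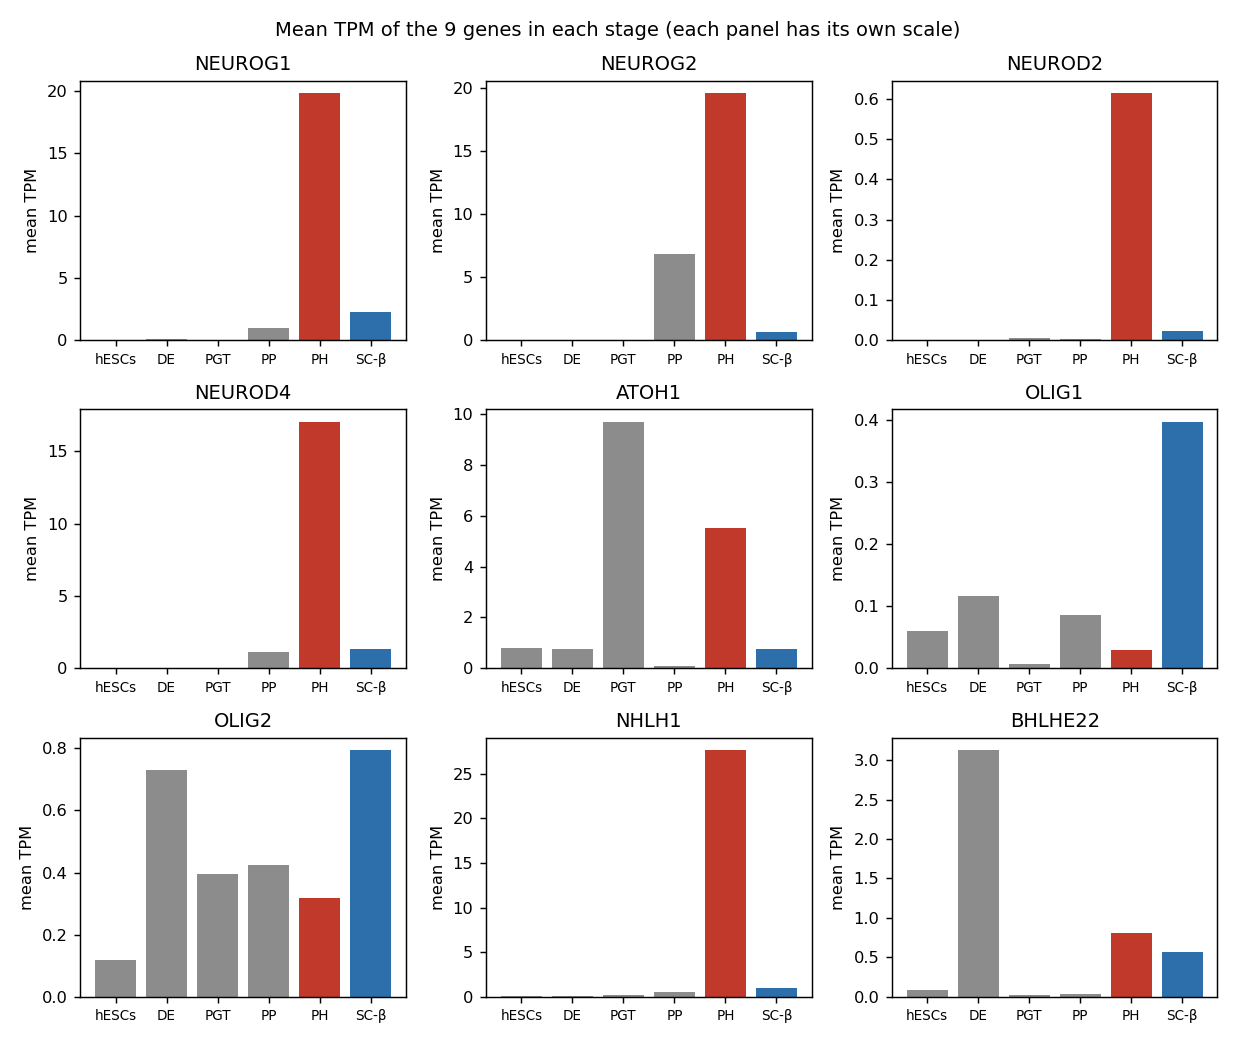
Mean TPM (vertical axis, linear, from 0, a separate scale in each panel) of the 9 genes in the 6 stages (horizontal axis). Bars are the authors' means over replicates, without error; PH is red, SC-β blue and the other stages grey. NEUROG1, NEUROG2, NEUROD2, NEUROD4 and NHLH1 are highest in PH, ATOH1 in PGT, BHLHE22 in DE and the OLIG genes in SC-β.

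The neurogenins, which start neurogenesis in the sensory ganglia and the spinal cord, were first listed above 1 TPM after PGT. NEUROG1 was listed at 0 in hESCs and was at 0.0729 TPM in DE, 0.00982 in PGT, 0.966 in PP, 19.8 in PH and 2.21 in SC-β. PH was thus the high stage, 8.98 times the next, which was SC-β. In PH lay 85.9% of its level summed over the stages.

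NEUROG2 was at 0.00846 TPM in hESCs, listed at 0 in DE and PGT, and at 6.83 TPM in PP, 19.6 in PH and 0.662 in SC-β. PP was the second stage here, 10.3 times SC-β, whereas NEUROG1 was higher in SC-β than in PP. In PH the level of NEUROG2 was 2.87 times that in PP, the smallest ratio of highest to next stage among the 5 members that were highest in PH.

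ATOH1, the proneural factor of cerebellar granule cells, dorsal spinal interneurons, hair cells and intestinal secretory cells, had another order. It was at 0.791 TPM in hESCs, 0.744 TPM in DE, 9.69 in PGT, 0.0888 in PP, 5.53 in PH and 0.751 in SC-β. It was highest in PGT, 1.75 times PH, and lowest in PP, where NEUROG2 was the highest member. The levels in hESCs, DE and SC-β were within 0.1 TPM of each other.

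NEUROD4, a differentiation factor that the neurogenins are known to induce, was listed at 0 in hESCs, DE and PGT, and was at 1.16 TPM in PP, 17.0 in PH and 1.37 in SC-β. PH was 12.4 times SC-β, and PP and SC-β were close to each other. NEUROD2, a factor of maturing cortical and other neurons, was under 1 TPM in all 6 stages. It was listed at 0 in hESCs and DE, and was at 0.00384 TPM in PGT, 0.0018 in PP, 0.615 in PH and 0.0211 in SC-β, so its ratio of 29.1 between PH and SC-β is one of low values.

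NHLH1, a bHLH factor of newly formed neurons, had the highest level of any member in any stage. It was at 0.0661 TPM in hESCs, 0.119 TPM in DE, 0.25 in PGT, 0.572 in PP, 27.6 in PH and 0.992 in SC-β. Its 5 other stages were all under 1 TPM, and PH was 27.9 times SC-β.

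BHLHE22, which acts in cortical and dorsal spinal interneuron identity, was at 0.0824 TPM in hESCs, 3.12 TPM in DE, 0.0172 in PGT, 0.0321 in PP, 0.808 in PH and 0.568 in SC-β. It was the only one of the 9 that was highest in DE, at 3.87 times PH, and PH and SC-β were the next stages.

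The OLIG genes stayed under 1 TPM in all 6 stages. OLIG1 was at 0.0609 TPM in hESCs, 0.117 TPM in DE, 0.0072 in PGT, 0.0857 in PP, 0.0303 in PH and 0.397 in SC-β. OLIG2 was at 0.118 TPM in hESCs, 0.731 TPM in DE, 0.395 in PGT, 0.425 in PP, 0.318 in PH and 0.794 in SC-β. Both were highest in SC-β and second in DE, and in both PH was among the 2 lowest stages. For OLIG2 the difference between SC-β and DE was small, a ratio of 1.08.

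Stages were then compared by the log2 ratio of (TPM + 1), with at least 2-fold counted as higher or lower. The pseudocount of 1 TPM makes the ratios of members near or under 1 TPM small. The 6 comparisons share stages with each other, so their counts are not independent. The share of all 49085 names past the same limit is given with each as the background.

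From hESCs to DE, 1 of the 9 members was at least 2-fold higher, BHLHE22 with a log2 ratio of 1.93, and none was lower. Of all names 12.9% were higher and 2.55% lower. The median log2 ratio was 0.07 over the members and 0.12 over all names. OLIG2, at 0.63, was the next member.

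From DE to PGT, ATOH1 was higher with a log2 ratio of 2.62 and BHLHE22 lower with a log2 ratio of -2.02, against 2.3% of all names higher and 4.92% lower. ATOH1 was 13.0 times as high in TPM in PGT as in DE. The other 7 members were under the limit.

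From PGT to PP, NEUROG2 and NEUROD4 were counted as higher and ATOH1 as lower, against 2.74% of all names higher and 3.25% lower. No fold is given for NEUROG2 and NEUROD4, which were listed at 0 in PGT. ATOH1 had a log2 ratio of -3.30. NEUROG1, at 0.96, was just under the limit.

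From PP to SC-β, no member was at least 2-fold higher and NEUROG2 was lower with a log2 ratio of -2.24, against 10.6% of all names higher and 0.939% lower. The largest ratios under the limit were those of NEUROG1 at 0.71, ATOH1 at 0.69 and BHLHE22 at 0.60. The median was 0.34 over the members and 0.16 over all names.

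In PH against PP, 5 of the 9 members were at least 2-fold higher and none was lower, against 5.14% of all names higher and 5.73% lower. The log2 ratios were 4.19 for NHLH1, 3.41 for NEUROG1, 3.06 for NEUROD4, 2.58 for ATOH1 and 1.40 for NEUROG2. BHLHE22 at 0.81 and NEUROD2 at 0.69 were under the limit, and OLIG1 at -0.08 and OLIG2 at -0.11 were near 0. The median was 1.40 over the members and 0 over all names.

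In PH against SC-β, the same 5 members were at least 2-fold higher and none was lower, against 2.41% of all names higher and 14.7% lower. The log2 ratios were 3.85 for NHLH1, 3.63 for NEUROG2, 2.93 for NEUROD4, 2.70 for NEUROG1 and 1.90 for ATOH1. OLIG1 and OLIG2, each at -0.44, had the lowest ratios. The median was 1.90 over the members and -0.20 over all names, and this comparison uses the same PH values as the one before. The ratios depend on how a stage's total is shared out: the 100 most abundant names took 62.9% of the TPM in PH, 57.3% in PP and 49.0% in SC-β. Rescaling each stage by its median ratio moved every log2 ratio of PH against PP by 0.22 and of PH against SC-β by 0.50, upwards, before the pseudocount.

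**Figure D3:**
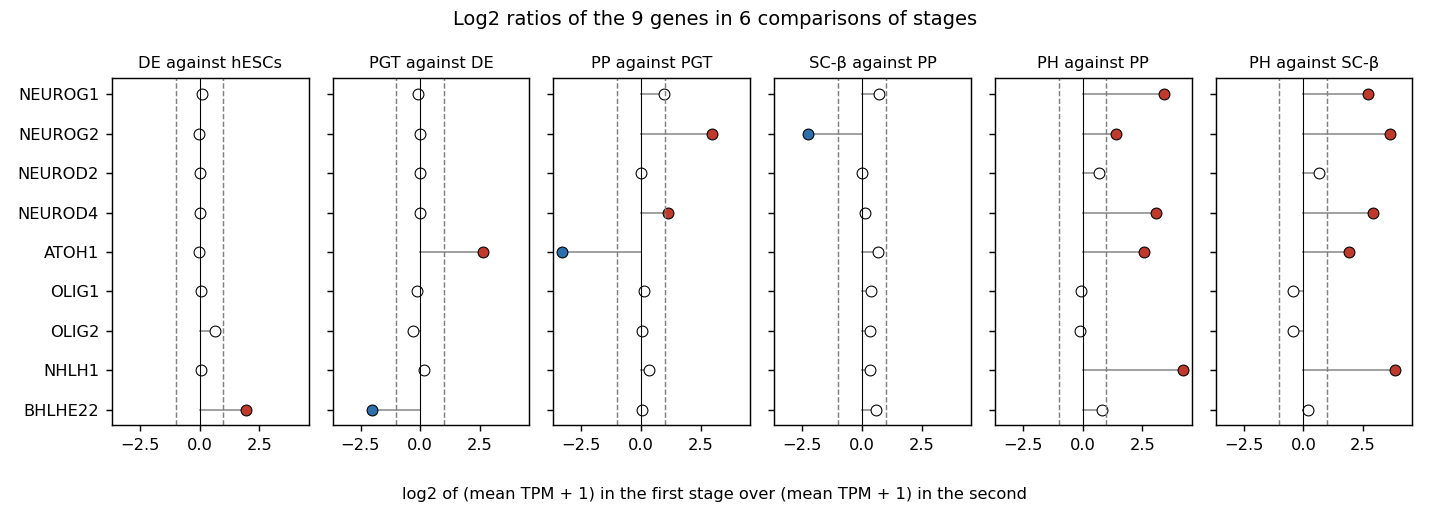
Log2 ratio of (mean TPM + 1) between 2 stages (horizontal axis) for the 9 genes (vertical axis) in 6 comparisons. Filled circles are at least 2-fold higher (red) or lower (blue), open circles are under that limit, dashed lines mark it. In both comparisons of PH the same 5 genes lie past it on the right; the ratios of NEUROG2 and NEUROD4 in PP against PGT rest on the pseudocount, since both are listed at 0 in PGT.

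The other bHLH factors of the neural and endocrine lineages that are reported, 13 genes, were all listed, and 6 of them were highest in PH. Among these 6, NEUROD6, at 0.158 TPM, NEUROG3, at 0.602, and BHLHE23, at 0.654, were under 1 TPM in PH. NHLH2, the paralog of NHLH1, was at 2.07 TPM in PP, 41.3 in PH and 0.938 in SC-β. PTF1A, which acts in the pancreas and in the dorsal spinal cord and cerebellum, was at 1.02 TPM in PP, 7.61 in PH and 0.0229 in SC-β. OLIG3, a factor of dorsal neural progenitors, was at 11.8 TPM in PP, 20.3 in PH and 3.94 in SC-β, an order of stages that NEUROG2 shared.

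Against PP, 2 of these 13, NHLH2 and PTF1A, were at least 2-fold higher in PH and none was lower, with a median log2 ratio of 0.07. Against SC-β, 3 were higher and 2 lower, with a median of 0.16. The background over all names was 5.14% higher and 5.73% lower with a median of 0 against PP. Against SC-β it was 2.41% higher and 14.7% lower with a median of -0.20. Both backgrounds hold for the lists that follow. From PGT to PP, 4 of the 13 were counted as higher and none as lower, with a median of 0.42, against 2.74% of all names higher with a median of 0. NEUROD1, which neurons and endocrine cells share, was at 4.16 TPM in PP, 3.71 in PH and 21.0 in SC-β, and was one of those lower in PH against SC-β. NEUROG3, the endocrine counterpart of the neurogenins, was at 0.556 TPM in PP, 0.602 in PH and 0.313 in SC-β, and stayed under 1 TPM where NEUROG1 and NEUROG2 were near 20.

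The E-proteins, the dimer partners, were abundant in every stage. Their summed level was lowest in hESCs, at 108 TPM, and highest in PH, at 409 TPM, with 256 TPM in PP and 377 in SC-β. From PP to PH, TCF4 was just past the limit with a log2 ratio of 1.01, TCF12 was at 0.78 and TCF3 at -0.17. In PH against SC-β none of the 3 was past the limit.

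All 4 ID genes, whose products keep E-proteins from binding DNA, were highest in PGT, the stage in which ATOH1 was highest too. Their summed level was 694 TPM in DE, 1575 in PGT, 466 in PP, 467 in PH and 823 in SC-β. From PGT to PP 3 of the 4 were at least 2-fold lower, against 3.25% of all names. Between PP and PH none was past the limit and the median log2 ratio was 0.02. In PH against SC-β, ID1 was lower with a log2 ratio of -1.43, and the median over the 4 was -0.84.

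Of the 12 HES and HEY repressors and their relatives, 5 were at least 2-fold higher in PH than in PP and 1 was lower, with a median log2 ratio of 0.13. Against SC-β 3 were higher and 2 lower, with a median of -0.09. BHLHE40, at 1.72, and BHLHE41, at 1.62, were among those higher against PP. The gene lower against PP was HEY2, at -1.24, and its ratio against SC-β was -1.53. HES5, a Notch target of neural progenitors, was at 0.0882 TPM in PP, 110 in PH and 1.51 in SC-β. HES4 was at 32.2 TPM in PH with a log2 ratio of 2.56 against PP, and HES6, which promotes rather than represses neurogenesis, was at 68.6 TPM with a log2 ratio of 2.11. HES1, at 44.4 TPM in PP and 46.5 in PH, had nearly the same level in both.

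**Figure D4:**
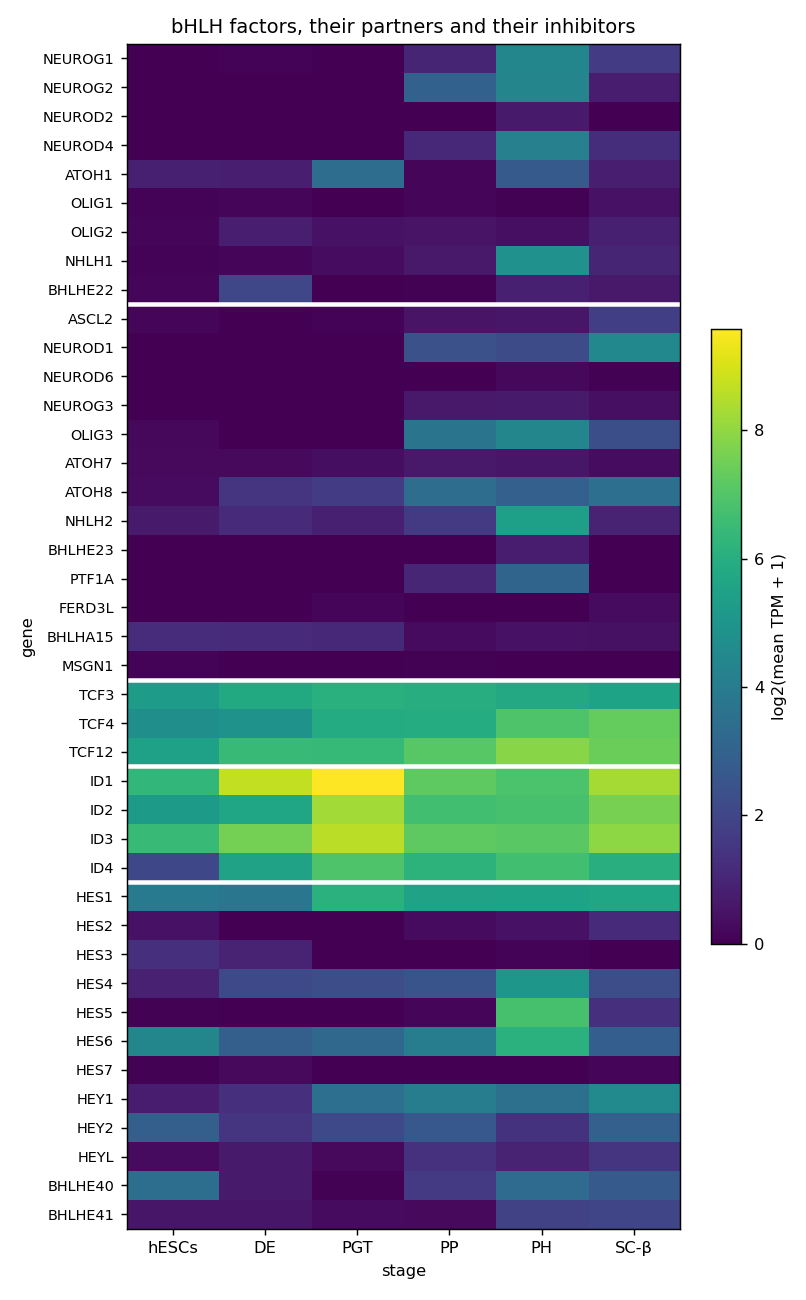
Log2(mean TPM + 1), shown by colour, in the 6 stages (horizontal axis) for the 9 genes and, below the white lines in turn, 13 other bHLH factors, 3 E-proteins, 4 ID genes and 12 HES, HEY and related repressors. NHLH2 and HES5 are highest in PH like 5 of the 9 genes, whereas the ID genes are highest in PGT.

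Genes that proneural factors are known to act on, or that mark early neurons, were followed as a list of 17. Of these, 15 were at least 2-fold higher in PH than in PP and none was lower, with a median log2 ratio of 3.67. Against SC-β 14 were higher and 1 was lower, with a median of 2.74. From PP to SC-β, where none of the 9 members was at least 2-fold higher, 7 of these 17 were and none was lower, with a median of 0.69, against 10.6% of all names higher with a median of 0.16. The largest of these ratios were those of EBF1 at 5.16, EBF3 at 2.97, EBF2 at 2.64 and STMN2 at 2.57. In the same step the mesenchymal markers went from 59.7 to 1557 TPM and the endocrine markers from 244 to 3919 TPM. Whether these genes rose in such cells or in neurons was not tested. The summed level of the 17 was 137 TPM in PP, 1499 in PH and 270 in SC-β, and 15 of the 17 were highest in PH. STMN2, a microtubule regulator of growing axons, was at 4.48 TPM in PP, 301 in PH and 31.7 in SC-β. MYT1 was at 0.299 TPM in PP, 41.0 in PH and 1.06 in SC-β, and ELAVL3, a neuronal RNA-binding protein, at 0.385, 30.4 and 0.976 TPM.

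The exceptions to PH were EBF1, at 30.0 TPM in PH and 61.8 in SC-β, and CBFA2T2, at 19.7 and 27.7 TPM. DLL1, the Notch ligand that proneural factors induce, was at 21.9 TPM in PGT, 8.10 in PP, 76.5 in PH and 4.20 in SC-β, so that its 2 highest stages were those of ATOH1 in the opposite order.

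Of 15 factors of dorsal interneurons and sensory neurons, 14 were listed. Of these, 12 were at least 2-fold higher in PH than in PP and none was lower, with a median log2 ratio of 2.65, which includes 3 genes listed at 0 in PP. Against SC-β 10 were higher and 1 was lower, with a median of 1.95. LHX1 was at 0.525 TPM in PP and 92.1 in PH, LHX5 at 0.0496 and 43.4, and PRDM13, which acts with PTF1A in the dorsal spinal cord, at 0.387 and 20.2 TPM. LHX1 was also at 56.8 TPM in DE, where it is known from the early endoderm.

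Among these, the genes known to follow ATOH1 were at lower levels in PH than LHX1, LHX5 and PRDM13. In PH, BARHL1 was at 1.17 TPM, BARHL2 at 0.665, LHX2 at 3.71 and LHX9 at 4.78 TPM. In SC-β, where ATOH1 was at 0.751 TPM, BARHL2 had its highest level, 6.11 TPM, with BARHL1 at 0.0766, LHX2 at 0.972 and LHX9 at 0.959 TPM. In PGT, where ATOH1 was highest, BARHL1 was at 0.0109 TPM, LHX2 at 0.153 and LHX9 at 0.0113 TPM, and BARHL2 was listed at 0. POU4F3, a target of ATOH1 in hair cells, was highest in PGT at 1.58 TPM and listed at 0 in PP and PH. POU4F1, which acts in the sensory neurons that the neurogenins form, was at 0.689 TPM in PP and 23.1 in PH.

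The list of ventral progenitor and motor neuron factors, in which OLIG2 acts, had medians below 0. None of the 11 was at least 2-fold higher in PH than in PP and 4 were lower, with a median log2 ratio of -0.58. Of all names 5.73% were lower in PH than in PP, and the median over names at 1 TPM or more was -0.10. Against SC-β none of the 11 was higher and 5 were lower, with a median of -0.59. Of all names 14.7% were lower in PH than in SC-β, and the median over names at 1 TPM or more was also -0.59. NKX6-2 had a log2 ratio of -2.54 against PP, NKX6-1 one of -1.35, MNX1 one of -1.33 and ISL1 one of -1.14. NKX6-1, MNX1 and ISL1 also act in pancreatic cells.

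Of 10 oligodendrocyte lineage genes, 1 was at least 2-fold higher in PH than in PP and 4 were lower, with a median log2 ratio of -0.48. Against SC-β none was higher and 4 were lower, with a median of -0.91. Of all names 5.73% were lower in PH against PP and 14.7% against SC-β. SOX10, which is shared with neural crest and Schwann cells, was at 8.69 TPM in PP, 0.318 in PH and 0.649 in SC-β. MBP, a myelin protein, was at 11.3 TPM in PP, 2.02 in PH and 8.59 in SC-β. The gene that was higher was PDGFRA, at 11.9 TPM in PP, 58.1 in PH and 205 in SC-β, which mesenchymal cells express too. These genes were highest in PP or SC-β in 8 of 10 cases. The share of all names highest in these stages was not computed, so the number has no background. OLIG1 and OLIG2 were under 1 TPM in both stages.

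**Figure D5:**
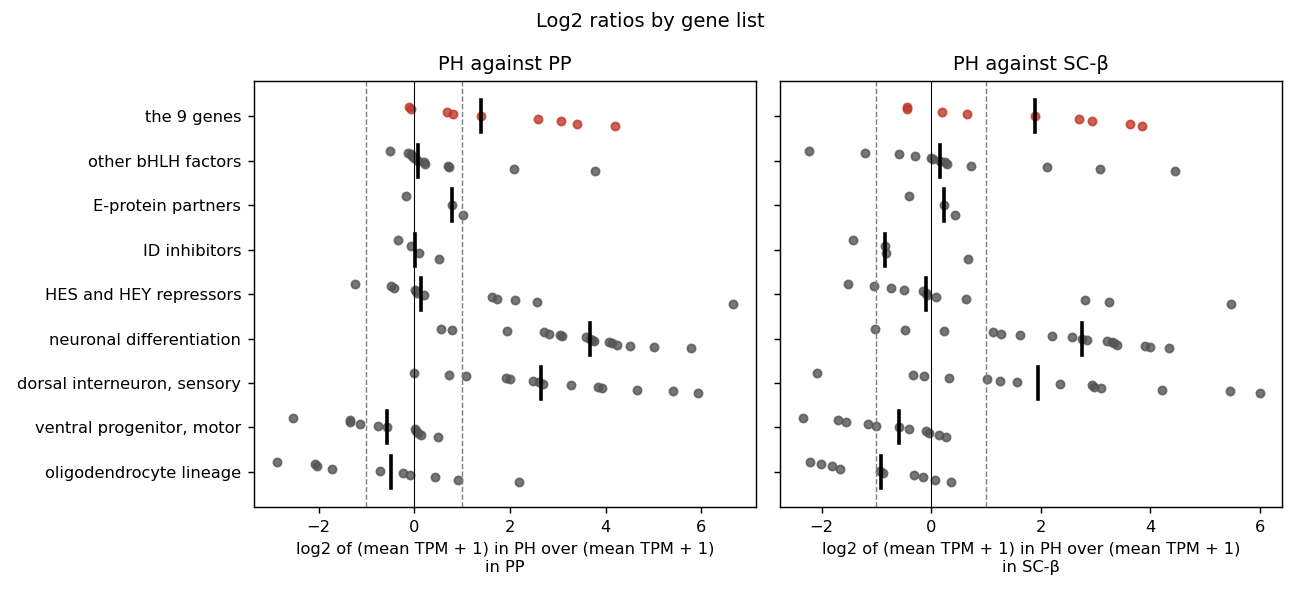
Log2 ratio of (mean TPM + 1) in PH over that in PP (left) and in SC-β (right), on the horizontal axes, for the 9 genes (red) and the genes of 8 lists (grey), 1 circle per gene. Black bars are medians and dashed lines mark 2-fold. The median of the 9 genes is 1.40 against PP and 1.90 against SC-β, those of the neuronal differentiation list are 3.67 and 2.74, and those of the ventral and oligodendrocyte lists lie below 0. Over all names the median is 0 against PP and -0.20 against SC-β, and over names at 1 TPM or more it is -0.59 against SC-β.

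Over the 6 stage means, Pearson's r of log2(TPM + 1) was 0.99 between NEUROG1 and NEUROD4, 0.97 between NEUROG1 and NHLH1 and 0.98 between NEUROD4 and NHLH1. NEUROG2 had r of 0.86 with NEUROG1 and 0.90 with NEUROD4, and ATOH1 had r of 0.28 with NEUROG1 and 0.43 with NHLH1. OLIG1 and OLIG2, the neighbouring genes, had r of 0.70. These values are descriptions over 6 points that share 1 cell line and the TPM scale, and for the 5 members that were highest in PH they rest on that single stage.

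The names most like each member were taken from 13717 names at 5 TPM or more in a stage, by the same measure. For NEUROG1 they were SCN3A, a neuronal sodium channel, at r of 0.999, PDE1A at 0.998 and WDR47 at 0.997. For NHLH1 they were MKRN3 at 0.9998, with 27.1 TPM in PH and at most 0.813 TPM elsewhere, MAPT, the gene of tau, at 0.999, and SOX1 at 0.998. For NEUROD4 they were WDR47, SCN3A and an entry listed as MIR219A2, at 0.995 or more. For NEUROG2 they were RGS3 at 0.985, GPRIN1 at 0.979 and STMN3 at 0.979, which unlike it were expressed in every stage, with RGS3 between 15.1 and 26.4 TPM.

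For ATOH1 the most alike were FBXO44 at 0.986, CADPS, a factor of vesicle release, at 0.966, and DNMT3A at 0.959. CADPS was at 197 TPM in PGT, 66.9 in PH and 16.8 in PP, so its 2 highest stages and its lowest were those of ATOH1. For BHLHE22 they were KCNF1, a potassium channel, at 0.994 with 7.60 TPM in DE, an entry listed as MIRLET7F1 at 0.987 and ZSCAN32 at 0.974. NEUROD2, OLIG1 and OLIG2, under 1 TPM throughout, were not matched.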

How the data were processed

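RNA-seq of H9 hESCs and of the DE, PGT, PP, PH and SC-β stages was analysed, 2 replicates each. The authors aligned paired-end reads of 50 bases to hg38 with HISAT2 (version 2.2.0), estimated expression with StringTie (version 2.1.6) and deposited TPM per gene as 1 mean per stage. The annotation behind the gene names and the use of strand in counting are not given in the sources used here. The study's methods name removal of ribosomal RNA with a RiboMinus kit, and the labels a stranded mRNA kit. Which of them was used is not settled here.

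The table held 50451 entries under 49085 names, and entries under 1 of the 231 repeated names were summed. Depth, counts and the spread between replicates are unknown, so no test, interval or detection limit was computed. Log2 ratios were taken of (TPM + 1), and a member counted as higher or lower from 2-fold. Pearson's r was computed on log2(TPM + 1) over the 6 stages. The alternatives were a pseudocount of 0.1 TPM, a 4-fold threshold, median-ratio rescaling over 13938 names, totals without the 100 most abundant names, names at 1 TPM or more only, a limit of 0.5 TPM in place of 1 TPM and the highest entry of a repeated name. The calculations and the motif search were tested on simulated data.

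The members and the gene lists were chosen with earlier results of these data known, so no pattern over a list is independent support. Some genes of these lists are not reported here. They were dropped once their values had been seen, and all counts, medians and likenesses are those without them. All members are named. Of each list at most 4 genes per comparison were to be named, those with the largest log2 ratio that reached 1 TPM in at least 1 of the stages compared, and for each member at 1 TPM or more in a stage the 3 most alike names. NEUROG3, EBF1, CBFA2T2, DLL1, HES1, BARHL1, BARHL2, LHX2, LHX9, POU4F1, POU4F3, SOX2, SOX9, PDX1 and INS were named outside this rule, after their values were seen. NEUROD6, BHLHE23 and BHLHE41 were named in the same way. Positions are from GENCODE version 44 and promoters from RefSeq. Python 3.11.15 was used with numpy 2.4.6, pandas 2.3.3 and matplotlib 3.10.9.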

Additional observations from a re-analysis of the deposited data

How the results depend on the processing

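Each stage is a single mean, so the spread between replicates limits every statement and is unknown, and leaving out a replicate was not run, since no replicate has a value of its own. No paired analysis was possible because the deposited columns average the replicates. The members at least 2-fold higher in PH numbered 5 against PP and 5 against SC-β, and between 4 and 7 against PP and between 4 and 6 against SC-β under the 6 alternatives. NEUROG1, NEUROD4 and NHLH1 were counted in both under all 6. Of these alternatives, the filter at 1 TPM and the highest entry of a repeated name could not change the counts. With 4-fold, NEUROG2 was lost against PP and ATOH1 against SC-β.

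With a pseudocount of 0.1 TPM the members higher were 2 in DE against hESCs and 4 in SC-β against PP, and those lower were 2 in PGT against DE and 2 in PH against SC-β, the latter OLIG1 and OLIG2. With a 4-fold threshold 0 members were higher in DE against hESCs and 1 in PP against PGT. Without the 100 most abundant names 1 member was higher in SC-β against PP. With a limit of 0.5 TPM, and likewise without the 100 most abundant names, members at the limit numbered 1 in hESCs, 3 in DE, 4 in PP, 7 in PH and 7 in SC-β, so PH and SC-β then had the same number. Of 72 counts of members recomputed, 65 stayed within 1.5 times the main count. Of 216 log2 ratios of members, 197 kept their side of the limit, 17 passed it only under an alternative (12 with the lower pseudocount, 5 without the most abundant names), and NEUROD4 in SC-β against PP, at 0.13, changed sign, to -0.02 with median-ratio rescaling and -0.01 without the most abundant names. Rescaling moved log2 ratios of DE against hESCs by -0.48, of SC-β against PP by -0.27 and of PGT against DE by 0.15. Names most like NEUROD4 shared 0 of 3 with a pseudocount of 0.1 TPM, and those of NHLH1 and BHLHE22 shared 1. The filter at 1 TPM and the highest entry of a repeated name cannot change the members by construction. Their unchanged results are nevertheless part of the 72 counts. The highest entry also gave 54 of the 216 log2 ratios, all unchanged.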
